A study of Mus musculus with 6 samples.

Results

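A set of 10 genes of the carnitine shuttle and of mitochondrial fatty acid oxidation were followed in tongue epithelium with and without a K14-driven deletion of Ire1α. They are the 3 carnitine palmitoyltransferase 1 genes Cpt1a, Cpt1b and Cpt1c, with Cpt2, Slc25a20, Crat, Acadl, Acadm, Acadvl and Hadha. They were picked by gene name from the 55421 rows of the deposited table of normalised read counts, and all 10 have a row. The set was proposed with the KO against WT values of these data known, Cpt1c being among the largest differences. The differences of the 10 genes between genotypes are therefore a description and carry no test.

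The data are 6 libraries from 6 mice, 1 library each, made with a 3' mRNA tag kit (QuantSeq) from peeled tongue mucosa labelled as keratinocytes. The 3 WT mice had the genotype IRE1F/F, floxed Ire1α (Ern1) alleles with no Cre. The 3 KO mice were littermates with the same alleles plus K14CreERT2, a tamoxifen-activated Cre under the keratin 14 promoter, so recombination is limited to cells that use that promoter. Tamoxifen was injected daily into mice of both genotypes for 4 days, with harvest on day 5, so both groups share the drug and the floxed alleles, and only KO mice carry Cre. The labels give no age, sex or strain. Per-mouse values below are normalised read counts in the order of replicates 1, 2 and 3.

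Long-chain fatty acids enter mitochondria as carnitine esters. Carnitine palmitoyltransferase 1 on the outer membrane makes the ester and is blocked by malonyl-CoA, the translocase Slc25a20 carries it across the inner membrane, and Cpt2 turns it back into acyl-CoA. Acyl-CoA dehydrogenases matched to chain length and the trifunctional protein, of which Hadha and Hadhb are the subunits, then shorten the chain. Cpt1a is the liver form, which many other tissues also use, Cpt1b the muscle form, and Cpt1c a form best known from neurons that lies in the endoplasmic reticulum and has little catalytic activity. Cpt1c has also been described as a target gene of p53.

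Libraries held 4606309 to 6286153 reads. Of all rows, 10987 genes reached a normalised value of 10 in 3 or more libraries and were tested, and 198 of them (134 higher and 64 lower in KO) passed limma at an adjusted p of 0.05. The targeted gene Ern1 was at 102, 105 and 77.1 in the WT mice and at 78.0, 117 and 123 in the KO mice, but a 3' tag may lie outside the deleted part, so it does not check the genotype. All 12 keratinocyte markers were tested, and limma called 0, edgeR 1 (Krt6b) and DESeq2 5. Of the 10987 tested genes these tools called 198, 190 and 368. An unadjusted limma p under 0.05 was found for 7 of the 12 markers, against 13.5% of all tested genes. KO lay above WT in 5 of the 12, Krt5, Krt14, Krt6a, Krt6b and Dsg3, and below in 2, Krt15 and Trp63. The groups overlapped in the other 5. Over all tested genes KO lay above WT in 9.84% and below in 9.25%. KO replicate 1 stood apart, with the summed level of 20 skeletal muscle markers at 3380, against 246 to 490 in WT and 167 and 691 in the other KO libraries. In it 15 of those 20 markers and 8 of 10 fibroblast markers reached their highest value of the 6 libraries. The summed fibroblast level was 1190 there, 253 and 636 in the other KO libraries and 1443 to 1973 in WT, most of it from Dcn, the 1 fibroblast marker called (lower, by limma). Without Dcn that sum was 660 in KO replicate 1, 58.6 and 91.5 in the other KO libraries and 112 to 118 in WT. The sum of 7 endothelial markers was 35.3 to 50.6 in WT and 68.6 to 126 in KO, and that of 7 leukocyte markers 236 to 278 and 251 to 406. None of 8 adipocyte markers was abundant enough to be tested, and without Ucp1 their sum was 2.61 to 3.49 in WT and 1.72 to 16.3 in KO. The part of these marker levels in the results below was not tested. Acta1, Tnnc2 and Cox6a2 of the muscle list were listed at 0 throughout. In tissue RNA, fewer cells of a type and less RNA per cell cannot be told apart.

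The results turn on 2 genes of the same family, Cpt1a and Cpt1c. The 250 bases before their RefSeq start sites are therefore shown (RefSeq, GRCm38.p6, 5′ to 3′ on the strand of the gene). Cpt1a lies on the plus strand with its window at chr19:3323051-3323300, and Cpt1c on the minus strand with its window at chr7:44974852-44975101. The windows follow the RefSeq starts, and that of Cpt1a lies inside the gene as GENCODE M21 annotates it, which begins further upstream. Capitals mark GC boxes (GGGCGG) and CCAAT boxes (CCAAT) on either strand, and none of these matches overlaps another.
Cpt1a: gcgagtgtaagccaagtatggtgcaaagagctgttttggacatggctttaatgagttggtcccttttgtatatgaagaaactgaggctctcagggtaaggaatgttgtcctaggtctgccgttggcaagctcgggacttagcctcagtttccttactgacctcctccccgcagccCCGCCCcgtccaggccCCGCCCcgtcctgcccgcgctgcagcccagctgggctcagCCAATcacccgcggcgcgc
Cpt1c: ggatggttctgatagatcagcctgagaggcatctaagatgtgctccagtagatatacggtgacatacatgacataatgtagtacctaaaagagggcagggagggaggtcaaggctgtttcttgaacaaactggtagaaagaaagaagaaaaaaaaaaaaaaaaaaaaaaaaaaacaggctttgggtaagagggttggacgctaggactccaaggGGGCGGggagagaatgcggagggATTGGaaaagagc

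The Cpt1a window held 2 GC boxes and 1 CCAAT box at 59.6% G and C, and the Cpt1c window 1 of each at 44.0%. A GC box occurred in 32.9% of 27025 windows of this length and a CCAAT box in 34.5%. Neither window held TATAAA (13.0% of windows), the PPAR direct repeat AGGTCANAGGTCA (0.0370%) or the p53 half-site RRRCWWGYYY (7.18%), each on both strands. In these patterns N is any base, R is A or G, W is A or T, and Y is C or T. None of the 8 of the 10 genes with a window in the RefSeq table held the PPAR or the p53 motif. These are matches of letters in 250 bases and say nothing about binding.

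Cpt1c was far higher in KO tongue epithelium, and Cpt1a was at about the same level in both genotypes. Cpt1c (ENSMUSG00000007783, GENCODE M21 on GRCm38, chr7:44959372-44974851, minus strand) had normalised read counts of 4.71, 13.1 and 30.0 in the WT mice and 199, 153 and 157 in the KO mice. The lowest KO library was 5.11 times the highest WT library, and the groups did not overlap. The means were 15.9 ± 12.9 in WT and 170.0 ± 25.5 in KO (SD, n = 3), a ratio of 10.7 and a log2 fold change of 3.65 ± 0.49 (SE) on the log2(value + 1) scale. In the authors' deposited table of called genes Cpt1c has a log2 fold change of 3.48 with a standard error of 0.41, and it is the only 1 of the 10 genes there.

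WT libraries differed among themselves in Cpt1c. The values rest on 5, 15 and 23 reads in the WT mice and on 184, 178 and 165 reads in the KO mice. The exact 95% Poisson interval of the reads was 1.62 to 11.7 in WT replicate 1 and 14.6 to 34.5 in WT replicate 3, so these 2 libraries differed beyond counting error (intervals cover counting error only). In KO the 3 values lay within a narrower range relative to their mean. Library names have 2 styles whose meaning the labels do not give, a number (WT replicates 1 and 2, KO replicate 1) or a letter (the others). Within the numbered libraries the log2 difference of Cpt1c, KO minus WT, was 4.48, and within the lettered ones 2.33, with 1 library on one side in each.

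Markers of nerve were looked at because Cpt1c is best known from neurons. Snap25, Tubb3 and Nefl were listed at 0 in each of the 6 libraries, Stmn2 reached 1.08 at most and Syt1 lay between 3.77 and 13.3. Genes that most cells use were also listed at 0, so these zeros do not give a level. The sum of the 13 nerve and glia markers was 401 to 581 in WT and 415 to 565 in KO, most of it Mbp, which was the only 1 abundant enough to be tested and was not called. Without Mbp the sum was 10.4 to 16.6 in WT and 17.2 to 49.8 in KO, highest in KO replicate 1. The part of nerve RNA in the Cpt1c values was not tested. Without KO replicate 1, the library with high muscle markers, the log2 fold change of Cpt1c was 3.53.

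Cpt1a (ENSMUSG00000024900, chr19:3322334-3385733, plus strand) was at 147, 127 and 131 in the WT mice and at 163, 121 and 117 in the KO mice. The groups overlapped, with the highest and the lowest value both in KO. The means were 135 ± 10.9 in WT and 133 ± 25.2 in KO (SD, n = 3), a log2 fold change of -0.03 ± 0.20 (SE). That difference turned positive, at 0.04 to 0.06, with the name style as a covariate and on leaving out KO replicate 2, KO replicate 3 or WT replicate 1. Leaving out KO replicate 1 moved it the other way, to -0.18, and both remaining KO libraries then lay below every WT library. The 95% interval of the log2 fold change with all libraries ran from -0.47 to 0.41.

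Cpt1c thus made up a larger part of the reads of the 2 genes in KO. It was 3.11%, 9.37% and 18.7% of the summed Cpt1a and Cpt1c values in the WT mice and 55.1%, 56.0% and 57.3% in the KO mice. The 3 KO libraries lay within 2.2 percentage points of each other, while WT spanned 15.6. The summed level of both genes was 151 ± 10.6 in WT and 303 ± 50.6 in KO (SD, n = 3). The shares are used to compare libraries, not to rank the 2 genes. Neither the shares nor the summed level measure enzyme activity.

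**Figure D1:**
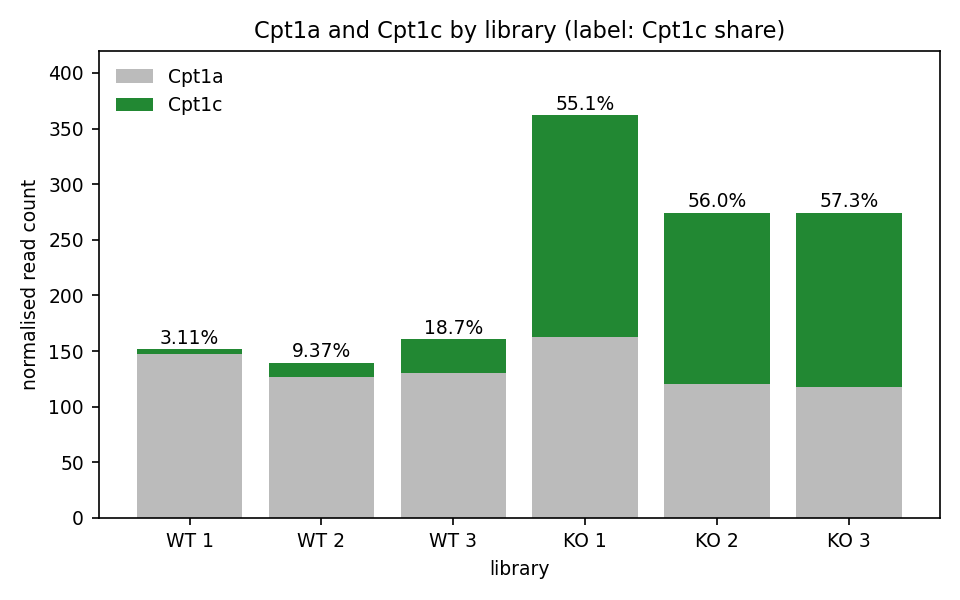
Stacked bars give the normalised read counts of Cpt1a (grey) and Cpt1c (green) in each of the 6 libraries, on a linear axis from 0, and the label is the Cpt1c percentage of the sum. The grey parts lie between 117 and 163 in both genotypes, and the green parts go from 4.71 to 30.0 in WT to between 153 and 199 in KO.

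Cpt1b, the muscle form, was listed at 0 in every library, including KO replicate 1. A count of 0 allows up to 3 reads in a library (2.59 to 3.92 as a normalised value), the one-sided 95% limit for counting error alone. Its whole length (ENSMUSG00000078937, chr15:89416405-89425863, minus strand) lies in the read-through gene Gm44502 on the same strand, and 100% of its last 500 exonic bases are exons of that gene, which was also at 0. Whether the counting of reads that fall in 2 genes set these zeros was not tested. Acadvl, the very-long-chain acyl-CoA dehydrogenase, gave 3 reads in all, 1 each in WT replicates 1 and 2 and KO replicate 2. Its last 500 exonic bases (ENSMUSG00000018574, chr11:70010183-70015411, minus strand) overlap exons of Dvl2 on the other strand over 82.0%, and Dvl2 was at 14.7 to 54.2. The strand setting of the authors' counting is not given in the sources used here, so the level of Acadvl mRNA cannot be read from these values. For Cpt1b the overlap is on the same strand, which no strand setting separates. How reads that fall in 2 genes were counted is not known, so the level of Cpt1b mRNA cannot be read either.

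Cpt2, Slc25a20 and Crat had higher mean values in KO, by much smaller amounts than Cpt1c, and limma called none of them. Cpt2, the inner-membrane transferase, was at 82.9, 59.3 and 69.2 in the WT mice and at 128, 99.97 and 96.3 in the KO mice. Every KO library was above every WT library, the log2 fold change was 0.61 ± 0.22 (SE), and Cpt2 was not called. Slc25a20, the carnitine-acylcarnitine translocase, was at 103, 97.7 and 88.8 in the WT mice and at 120, 137 and 103 in the KO mice. Here the highest WT and the lowest KO value, 102.7 and 102.9, all but met, and the log2 fold change was 0.31 ± 0.20 (SE). Crat, which moves acetyl groups between carnitine and CoA, was at 16.96, 6.11 and 5.22 in the WT mice and at 23.8, 15.5 and 15.2 in the KO mice. WT replicate 1 lay within the KO range, and the whole of these values rests on 85 reads in the 6 libraries (log2 fold change 1.02 ± 0.48 (SE)). Dolpp1, on the other strand, overlaps 11.8% of the last 500 exonic bases of Crat.

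The oxidation enzymes did not share a direction. Acadl, the long-chain acyl-CoA dehydrogenase, was at 407, 421 and 415 in the WT mice and at 600.2, 537 and 462 in the KO mice. WT libraries lay close together (415 ± 7.19, SD, n = 3), KO ones were spread above them (533 ± 69.1), and the log2 fold change was 0.35 ± 0.17 (SE). Acadm, the medium-chain acyl-CoA dehydrogenase, was the gene whose KO libraries all lay below WT, at 557, 393 and 410 in the WT mice and 384, 312 and 332 in the KO mice. Its log2 fold change was -0.39 ± 0.19 (SE), and the lowest WT and highest KO values differed by little. Hadha, the alpha subunit of the trifunctional protein, was at 516, 462 and 648 in the WT mice and at 791, 611 and 670 in the KO mice. The groups overlapped and the log2 fold change was 0.36 ± 0.19 (SE). Garem2, on the other strand and at 0 to 1.08, overlaps a smaller part of the last 500 exonic bases of Hadha than Dvl2 does of Acadvl.

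**Figure D2:**
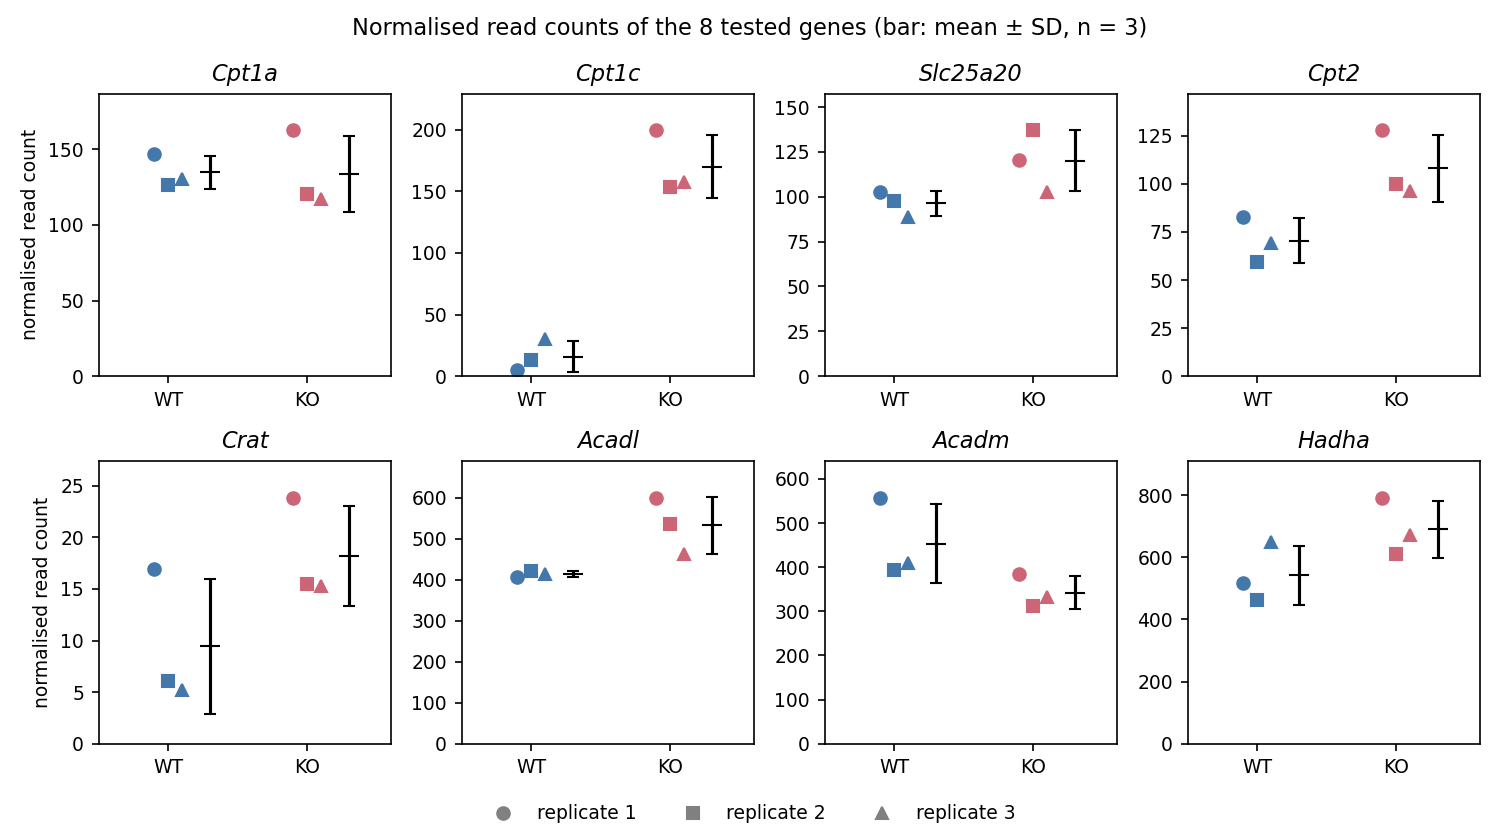
Each panel gives the normalised read count of 1 gene on its own linear axis from 0, with WT in blue, KO in red, 1 symbol shape per replicate number, and the mean ± SD (n = 3) as a black bar. The WT and KO symbols of Cpt1c are far apart, those of Cpt1a, Crat and Hadha overlap, and Acadm alone has every KO symbol below WT.

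Hadhb, the beta subunit, pairs with Hadha in 1 protein complex and its gene starts 85 bases from that of Hadha in the opposite direction on chromosome 5. It was at 130, 119 and 74.4 in the WT mice and at 65.0, 115 and 62.9 in the KO mice, and had a log2 fold change of -0.42 ± 0.29 (SE, limma adjusted p = 0.599), opposite in sign to Hadha. The Hadha value was 3.96, 3.90 and 8.70 times the Hadhb value in the WT mice and 12.2, 5.29 and 10.7 times in the KO mice. The lower ratios were those of WT replicates 1 and 2 and KO replicate 2, so the ratio overlapped between the genotypes.

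Of the 10 genes, 8 were tested, and 1 of these 8, Cpt1c, was called higher and 0 lower, against 1.80% called either way (1.22% higher and 0.583% lower) among all tested genes. KO lay above WT in 4 of the 8 and below in 1, where the shares over all tested genes were 9.84% and 9.25%, or 19.1% either way. Since the set was chosen on this contrast, nothing is read from these counts. The median log2 fold change of the 8 was 0.35, beside -0.01 over all tested genes. KO replicate 1 held the highest value of the 6 libraries for 6 of the 8 genes, Slc25a20 (KO replicate 2) and Acadm (WT replicate 1) being the others. Without that library the log2 fold changes were 0.48 for Cpt2, 0.30 for Slc25a20, 0.82 for Crat, 0.26 for Acadl and 0.25 for Hadha. They were -0.48 for Acadm and -0.18 for Cpt1a. The part that muscle RNA in KO replicate 1 had in these values was not tested beyond leaving it out.

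**Figure D3:**
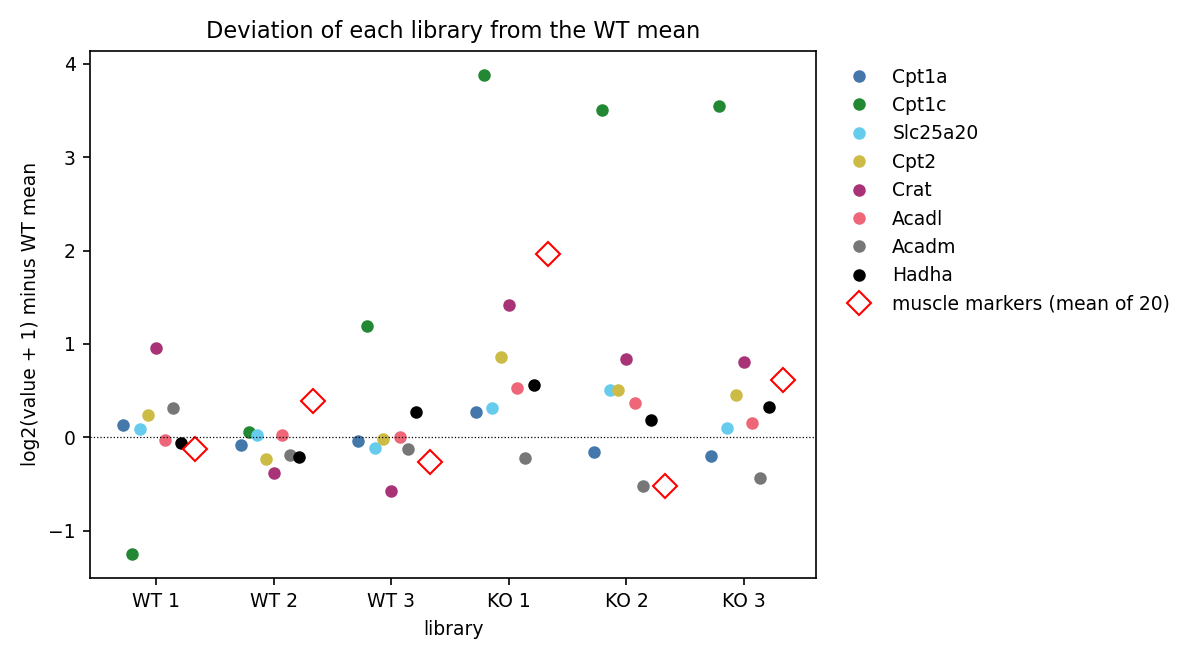
Points give log2(value + 1) minus the WT mean for the 8 tested genes in each library, and open red diamonds the mean deviation of 20 skeletal muscle markers. The diamond of KO replicate 1 stands at 1.96, with those of the other libraries between -0.52 and 0.61. Cpt1c lies at -1.25 to 1.19 in the WT libraries and at 3.51 to 3.88 in the KO libraries.

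Among further genes linked to fatty acid oxidation, 1 passed limma, a mitochondrial carrier rather than an oxidation enzyme. Of 87 genes in 7 further lists, 63 were tested, and with limma 1 rose (1.59%), 0 fell and 62 did not pass, beside 1.80% called among all genes. edgeR called that gene alone, Ucp2, and DESeq2 called Ucp2, Ppard and Oxct1. At an unadjusted p of 0.05, 18 of the 63 passed (28.6%, against 13.5% of all tested genes). KO lay below WT in 14 of the 63 tested genes (22.2%, against 9.25%) and above in 6 (9.52%, against 9.84%). The median log2 fold change of the 63 was -0.15.

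Among the other mitochondrial oxidation enzymes 0 of 14 tested genes passed limma, 9 had a negative log2 fold change, and the median was -0.13. An unadjusted limma p under 0.05 was found for 3 of the 14 (21.4%, against 13.5% of all tested genes). Echs1, the short-chain enoyl-CoA hydratase, was at 132, 128 and 170 in the WT mice and at 91.0, 75.8 and 103 in the KO mice, a log2 difference of -0.67 ± 0.21 (SE; adjusted p = 0.166 by limma). Hadh, the short- and medium-chain hydroxyacyl-CoA dehydrogenase, was at 686, 671 and 517 in WT and at 469, 384 and 371 in KO (-0.61 ± 0.18, SE; adjusted p = 0.148 by limma). In both genes every KO library lay below every WT library. Over the list KO lay below WT in 4 of the 14 (28.6%, against 9.25% of all tested genes) and above in 0 (against 9.84%). All 5 tested genes of carnitine supply and transfer had negative log2 fold changes (median -0.39), with 0 called by limma. Of these 5, 2 had an unadjusted limma p under 0.05 (40.0%, against 13.5%). KO lay below WT in 2 of the 5 (40.0%, against 9.25%) and above in 0 (against 9.84%). Slc25a29, a mitochondrial carrier first described for acylcarnitine, had a log2 fold change of -1.04 ± 0.33 (SE, limma adjusted p = 0.168). Crot, the peroxisomal carnitine octanoyltransferase, went from 551 ± 44.4 to 398 ± 38.2 (SD, n = 3; limma adjusted p = 0.226).

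The PPAR list, receptors that switch on oxidation genes with their coactivators and targets, held the 1 gene that passed. Of its 11 tested genes 9 had a positive and 2 a negative log2 fold change (median 0.37). An unadjusted limma p under 0.05 was found for 5 (45.5%, against 13.5% of all tested genes). KO lay above WT in 4 of the 11 (36.4%, against 9.84%) and below in 1 (9.09%, against 9.25%). Ucp2, a mitochondrial inner-membrane carrier, was at 75.4, 81.2 and 106 in the WT mice and at 181, 155 and 187 in the KO mice. Exons of Dnajb13, on the other strand, overlap 61.0% of the last 500 exonic bases of Ucp2. With the strand setting of the counting not given, the part of Dnajb13 reads in these values was not tested. The Ucp2 mean rose from 87.4 ± 16.1 to 174 ± 16.8, by 1.00 ± 0.20 (SE) on the log2 scale (limma adjusted p = 0.0372). KO was above WT in 3 of 3 libraries. The call was lost with equal library totals, with a replicate block (0.0514), with the name style as covariate and without any 1 library other than WT replicate 3 (highest limma adjusted p = 0.172), while edgeR (0.0329) and DESeq2 (0.00726) made it. Within the numbered and the lettered libraries the log2 difference was 1.20 and 0.68. The 3 receptors, named after their values were seen, did not pass limma. Ppard was at 177 ± 16.6 in WT and 298 ± 23.9 in KO, a log2 difference of 0.75 ± 0.17 (SE; adjusted p = 0.0627 by limma, DESeq2 adjusted p = 0.0307), and Ppara at 56.3 ± 6.44 and 24.0 ± 13.8 (-1.40 ± 0.44, SE; adjusted p = 0.168 by limma). Pparg was at 10.7 ± 8.09 and 15.6 ± 3.22 (0.72 ± 0.52, SE; adjusted p = 0.616 by limma). Ppard and Ucp2 are the 2 genes of these further lists in the authors' deposited table, with log2 fold changes of 0.75 and 1.00.

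Ketone body enzymes make or use the acetyl-CoA that oxidation yields, and 0 of their 4 tested genes passed limma. Each of the 4 had an unadjusted p under 0.05 and groups that did not overlap, 3 with KO below WT and 1 above, where 13.5% of all tested genes had such a p and 19.1% did not overlap. Oxct1, which starts ketone body use, was at 1338, 1250 and 1527 in the WT mice and at 1014, 634 and 862 in the KO mice, a log2 difference of -0.73 ± 0.20 (SE; adjusted p = 0.113 by limma, DESeq2 adjusted p = 0.0471). Acat1, the mitochondrial thiolase, was at 220, 156 and 154 in WT and at 86.7, 112 and 102 in KO (-0.80 ± 0.21, SE; adjusted p = 0.0977 by limma).

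In the remaining lists no gene passed limma, edgeR or DESeq2. An unadjusted limma p under 0.05 was found for 3 genes of uptake and activation (30.0%) and 1 of the peroxisomal list (10.0%). It was found for 0 genes of malonyl-CoA and AMPK control, where the share over all tested genes was 13.5%. Of 10 tested genes of fatty acid uptake and activation 5 had a positive and 5 a negative log2 fold change (median 0.08), with Slc27a3, a fatty acid transport protein, at 1.11 and Acsl1, a long-chain acyl-CoA synthetase, at -0.54 (limma adjusted p = 0.255 and 0.181). Of 9 genes of malonyl-CoA and AMPK control, which set the brake on carnitine palmitoyltransferase 1, 3 had a positive and 6 a negative log2 fold change (median -0.13). Acaca, which makes malonyl-CoA, was at 278 ± 28.9 in WT and 226 ± 25.8 in KO (SD, n = 3; limma adjusted p = 0.519), and Prkaa2, a catalytic subunit of AMPK, at 8.51 ± 6.26 and 12.7 ± 3.66 (limma adjusted p = 0.649). Of 10 peroxisomal genes 8 had a negative log2 fold change (median -0.27), with Ech1 at -0.55 and Abcd3, a peroxisomal fatty acid transporter, at -0.27 (limma adjusted p = 0.299 and 0.554).

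**Figure D4:**
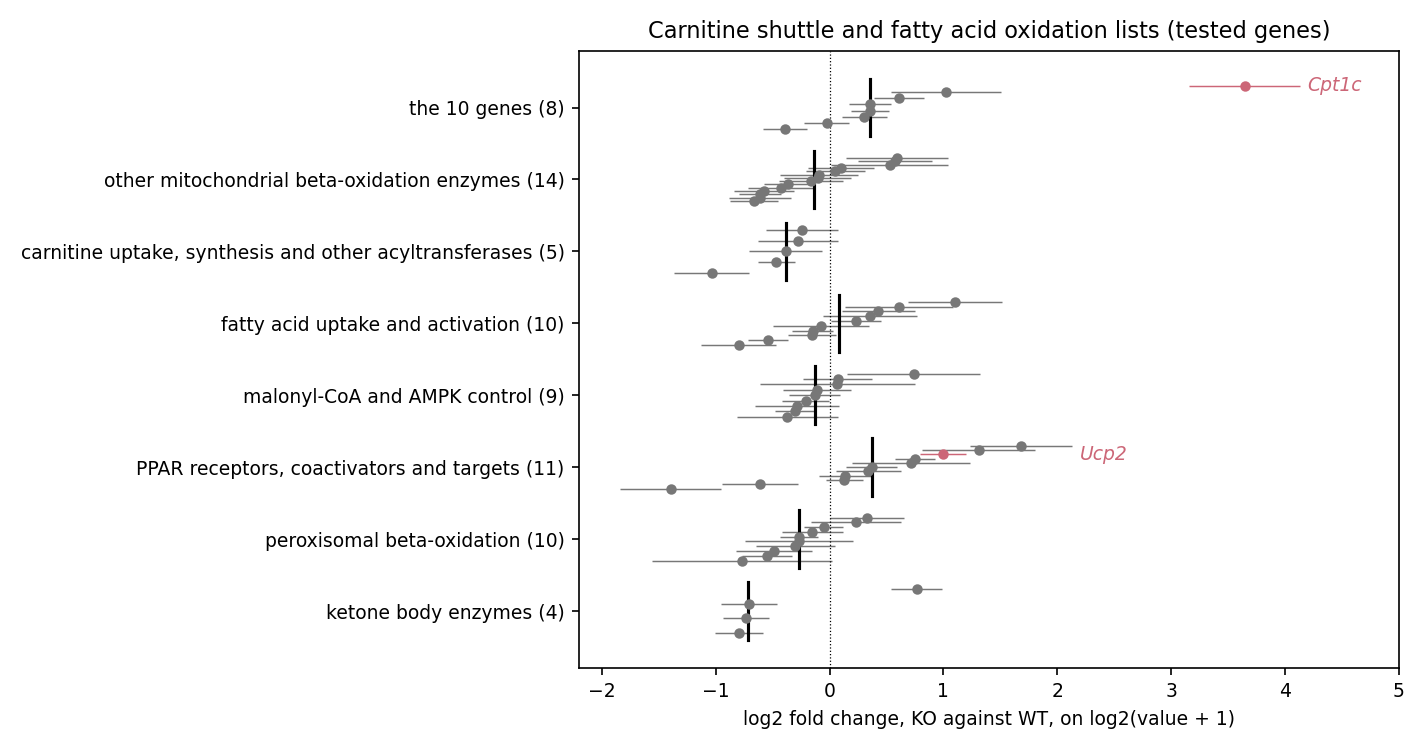
Each point is the log2 fold change of 1 tested gene, KO against WT, with its standard error as a bar, in the 10 genes and the 7 further lists (number tested in brackets), and black ticks are list medians. Red marks the genes that passed limma, Cpt1c at 3.65 and Ucp2 at 1.00, and the other points lie between -1.40 and 1.68.

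The genes whose profile over the 6 libraries was nearest to that of Cpt1c, by the root mean square distance of centred log2(value + 1) among 6865 tested genes with a mean of at least 50, included Sulf2 (0.49), Ptp4a3 (0.62), Klk6 (0.64) and Ddit4l (0.71). Sulf2, an extracellular heparan sulfate sulfatase, was at 10.4, 20.1 and 24.8 in the WT mice and at 199, 147 and 119 in the KO mice. The order is a description over 6 libraries that share the contrast Cpt1c was chosen on.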

How the data were processed

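Tongue epithelium RNA of 6 mice was analysed (3 WT, 3 KO), with groups and replicate numbers from the sample titles and columns matched by library name (0 value columns unmatched). The authors deposited normalised read counts, a signal per gene on a linear scale, per the file headers. A second deposited table lists the authors' called genes with a log2 fold change, a score (Wald statistic), p-values and q-values. The submitters' processing notes name DESeq2, featureCounts, STAR and FastQC. No build, annotation or strand setting is given in the sources used here, and 99.5% of the row identifiers are in GENCODE M21.

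Every value above 0 was a whole multiple of 1 step per library (100% within 0.01 of a read), which gave the reads. Rows without a symbol held 0.0768% to 0.119% of the values and were kept. Values entered limma 3.58.1 (R 4.3.3) as log2(value + 1), with an intensity trend, a filter of 10 in at least 3 libraries and Benjamini-Hochberg adjustment over all tested genes. Fold changes on that scale understate the change of low genes. Alternatives used edgeR 4.0.16 and DESeq2 1.42.0 on the recovered reads. Tests are two-sided. With 3 against 3, an exact permutation test cannot go below 0.1, so none was used. On simulated counts for this comparison (10784 genes tested), limma recovered 55% of 100 genes changed by 1 on the log2 scale. Of 100 genes changed by 2 it recovered 100%, and it made 6 false calls. The changed genes had a mean of at least 50, and all genes shared 1 fixed dispersion. No simulated library stood apart and none were grouped, so these rates do not carry over to lower or noisier genes.

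The members and lists were chosen with earlier results of these data known. Named genes are the 10 members, the called genes or else the 2 lowest p of each further list, and the 5 profiles nearest to Cpt1c, 1 of which is not reported here. The same was planned for Cpt1b, which is at 0 and has no profile. Hadhb, Ppard, Ppara and Pparg were added after their values were seen.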

Additional observations from a re-analysis of the deposited data

How the results depend on the processing

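Cpt1c was the 1 gene of the 10 called under each of the 16 alternatives, with a log2 fold change of 3.02 to 4.24. All 16 alternatives draw on the libraries and the contrast the set was chosen on, so they describe the processing only. Cpt1a changed sign in 4 of them (0.0585 with the style of the library name as covariate, and 3 of the 6 fits that leave out 1 library, which ranged from -0.175 to 0.0585). The other tested members kept their sign and stayed uncalled wherever they were tested. Within each name style taken alone, Hadha and Cpt1a were the tested members whose sign differed between the styles. The log2 difference of Hadha was 0.69 in the numbered and -0.02 in the lettered libraries, and that of Cpt1a 0.25 and -0.13. Each style has 1 library on one side. Crat, at its low level, was not tested with a filter of at least 50.

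Over all genes the count of called genes was 368 with DESeq2 on the recovered reads (216 higher and 152 lower), 82 with the name style as covariate, and 58 to 181 when 1 library was left out, against 198. Of the further pathway genes, 3 were called with DESeq2 (Ucp2, Ppard and Oxct1), 0 with equal totals, 0 with the name style as covariate and 0 to 1 when 1 library was left out. The cause of these differences was not tested.

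With a replicate block 178 genes, 1 of the 10 members and 0 further pathway genes were called, Ucp2 having a limma adjusted p of 0.0514. The labels give no shared source to libraries with the same number, and the deviations of same-numbered libraries from their group means had correlations of -0.25, 0.03 and 0.28 across 10987 genes. WT replicate 1 correlated best with KO replicate 2 (0.41).

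Depth limits Crat (4 to 22 reads per library) and Cpt1c in WT (5 to 23 reads).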

Other observations

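Some of the genes listed at 0, such as Etfb, are known to be used by most cells. In all, Cpt1b and 5 of the further pathway genes had no read in any library, the 5 being Acadsb, Etfb, Acsf3, Acaa1a and Acaa1b. Etfb is the beta subunit of the flavoprotein that takes electrons from acyl-CoA dehydrogenases, and its partner Etfa was at 166 to 293. Of the 6 genes at 0, only Cpt1b had 90% or more of its last 500 exonic bases inside exons of another gene, and 3 had any such overlap. Among protein-coding genes on the autosomes and the X chromosome, 41.1% of the 913 with 90% or more overlap were at 0 in all 6 libraries, beside 19.6% of 1649 with less overlap and 25.0% of 19149 with none. These shares also count genes that the tissue does not express.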
